A study of Mus musculus with 12 samples.

Results

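Ion channels, purinergic receptors and connexins were followed in a mouse osteoblast line and a mouse osteocyte line. The set holds 101 genes, each with 1 spot, of 4633 spots that carry 1 gene symbol and 5030 spots in all. Members were chosen by symbol alone, from the prefixes of the potassium, sodium, calcium, chloride and TRP channels, the acetylcholine, GABA and glutamate receptors, the P2 receptors and the connexins. By family there were 38 potassium channel genes, 10 GABA receptor, 10 glutamate receptor, 9 calcium channel, 8 acetylcholine receptor, 8 TRP channel, 6 chloride channel, 6 purinergic receptor, 3 sodium channel and 3 connexin genes. A prefix also takes in some genes whose products are not pores: Kcnab1, Kcnab2 and Kcnab3 encode cytoplasmic partners of potassium channels, Kcnip3 a calcium-binding partner, Trpc4ap a protein that binds TRP channels, and P2ry1 and P2ry2 receptors that act through G proteins. No spot with 1 gene symbol carried Gja1, the connexin gene best known in osteocytes. The prefixes of the ryanodine and inositol trisphosphate receptors were also searched and matched no such spot. These genes were therefore not analysed here.

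Total RNA was measured on 12 one-colour arrays, 3 for each of 4 groups. The osteoblast line 2T3 came from a mouse with SV-40 T antigen behind the BMP-2 promoter, and its groups are labelled C0 and low. The osteocyte line MLO-Y4 came from a mouse with T antigen behind the osteocalcin promoter, and its groups are labelled low and high. The labels set low-density against confluent osteoblasts, and osteocytes with gap junctions against osteocytes without them. They do not say which name goes with which state, so reading C0 as confluent and high as the state with gap junctions rests on the other group being called low. With 1 line for each cell type, effects of cell type, of line and of source animal cannot be told apart. Arrays are numbered 1 to 3 in a group without mention of separate cultures, so p-values reflect only how far these arrays scatter, and that scatter may be technical.

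Bone cells use these proteins to sense and pass on mechanical signals. Stretch and fluid flow open cation channels and cause release of ATP, which acts on P2X receptors, themselves ATP-gated cation channels, and on P2Y receptors, which couple to G proteins. Calcium that enters can open calcium-activated potassium channels, whose current sets the membrane potential. Connexins join neighbouring cells through gap junctions, and osteocytes are linked by them along their processes.

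Values below are scaled intensities, that is deposited spot intensities multiplied so that each array has the same median, 18.2 units. An array's detection limit was the size of its lowest value, on the view that readings below 0 show how far background alone can reach. In scaled units the limits lay between 4.04 and 13.6 on 10 arrays, but at 36.3 on MLO-Y4 low replicate 1 and 34.3 on MLO-Y4 high replicate 1. Summed intensity per array lay between 212491 and 1680311. For tests, values below 3.96 units, the 25th percentile, were set to that floor, and log2 was taken. Levels of different spots are not compared with each other, since each spot has its own probe. Fewer cells with a transcript and less transcript per cell cannot be told apart. Of 10 measured osteoblast and osteocyte markers, 5 exceeded it on every array and 1 on none. In limma Ackr3, Alpl, Cd44 and Pdpn of these were higher in MLO-Y4 and Msx2 was lower. Of markers of other cells, 0 of 7 for neurons, 1 of 6 for skeletal muscle and 0 of 6 for macrophages exceeded it on every array, and 1 of each list on none. Only the macrophage gene Tyrobp among these differed between the lines, being lower in MLO-Y4.

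Few members were above background throughout. Clcn7, Kcnd1, Cacna1g and Kcnh2, 4 of 101, exceeded the limit on every array (3.96%), against 24.9% of all spots. Another count, of members above it on all arrays of at least 1 group, was 34 (33.7%) against 59.4% of all spots. A further 11 exceeded it on 10 or 11 arrays, and 48 on 3 or fewer, counts for which the share of all spots is not given. The 9 above it on none were Gabra6, Gabrb2, Gabrr1 and Gabrr2 of the GABA receptors, the kainate receptor gene Grik2, the Shaker-type channel gene Kcna2 and the inward rectifier genes Kcnj2, Kcnj3 and Kcnj11. That is 8.91% of members, where 5.59% of all spots were above the limit on no array. On each of the 12 arrays the share of members above the limit, from 10.9% to 65.3%, was below the share of all spots, from 37.9% to 74.8%.

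**Figure D1:**
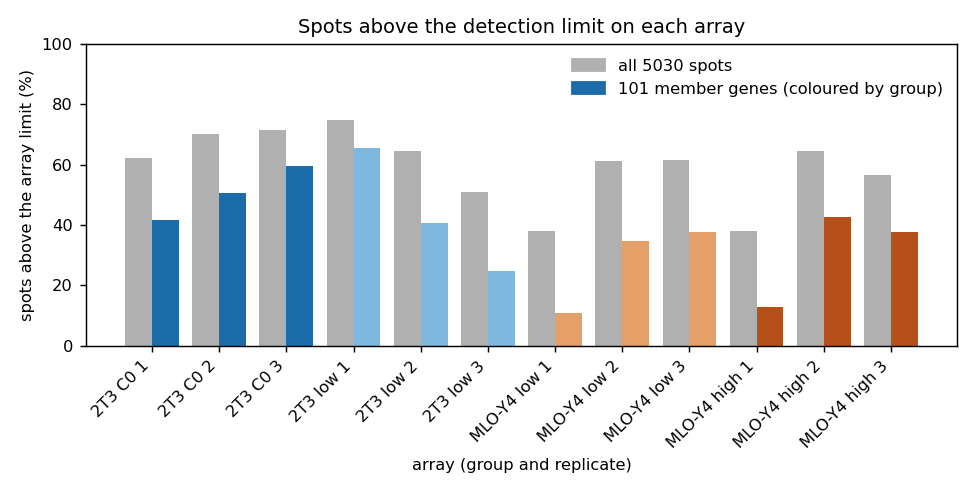
Share of spots above the detection limit on each of the 12 arrays, in percent, for all spots (grey) and for the 101 members (coloured by group). The members lie below all spots on every array, with the lowest shares, 10.9% and 12.9%, on the MLO-Y4 low and high arrays numbered 1.

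The share above the limit on all 3 arrays of a group was higher in 2T3 than in MLO-Y4, for members and for all spots alike. In 2T3 C0 it was 28 members (27.7%, against 50.3% of all spots) and in 2T3 low 18 (17.8%, against 45.2%). In MLO-Y4 low it was 9 (8.91%, against 34.6%) and in MLO-Y4 high 10 (9.9%, against 33.4%). Only 11 members were above the limit on MLO-Y4 low replicate 1 and 13 on MLO-Y4 high replicate 1, which caps both MLO-Y4 counts. On the other MLO-Y4 arrays 56.4% to 64.5% of all spots were above it, within the 2T3 range of 50.9% to 74.8%. Limits differ between arrays, and their part in these counts was not tested. The 3 arrays numbered 1 of 2T3 C0, MLO-Y4 low and MLO-Y4 high stood apart. On them 8 members had values below those on all of the other 9 arrays, which is 7.92% of members, close to the 7.08% of all spots. Group means of these 8 genes each include 1 such array, except in 2T3 low.

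**Figure D2:**
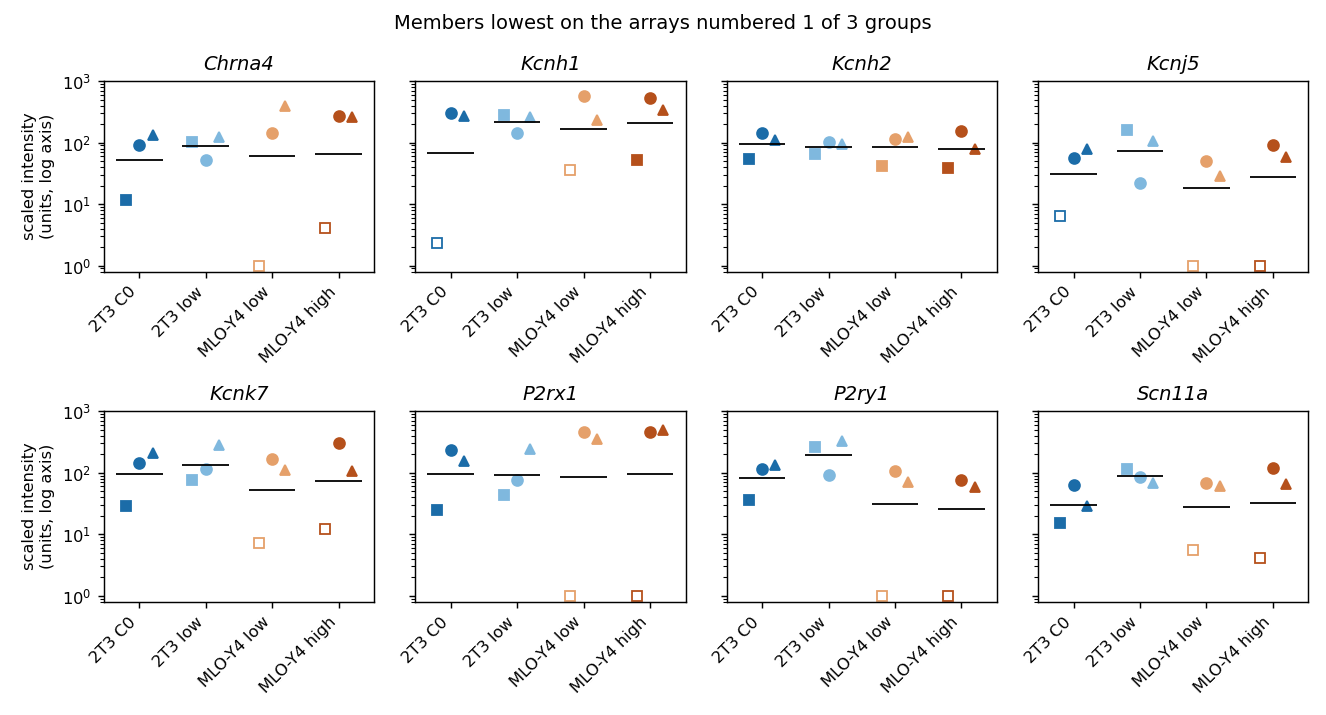
Scaled intensity (log axis) of the 8 members whose 3 values on the arrays numbered 1 (squares) of 2T3 C0, MLO-Y4 low and MLO-Y4 high lie below their other 9. Circles are replicates 2 and triangles replicates 3, filled symbols are above the array's limit, values under 1 are drawn at 1, and bars are geometric means of 3 arrays after the floor.

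Kcnh1, which encodes an ether-a-go-go potassium channel, shows the size of this gap. It read 2.37, 302 and 267 units in 2T3 C0, 283, 141 and 259 in 2T3 low, 36.3, 569 and 229 in MLO-Y4 low, and 52.5, 525 and 333 in MLO-Y4 high. Outside the 3 arrays it read 141 units or more, and the lines overlapped. P2rx1, an ATP-gated channel of smooth muscle and platelets, read 24.5, 231 and 155 in 2T3 C0, 43.4, 77.1 and 241 in 2T3 low, -10.9, 452 and 351 in MLO-Y4 low, and -6.06, 452 and 501 in MLO-Y4 high. Its 4 other MLO-Y4 values were all above 241 units, the highest 2T3 value, while the 2 from arrays numbered 1 were below every 2T3 value. Chrna4, a neuronal nicotinic receptor subunit, Kcnk7 of the tandem-pore potassium channel family, the G-protein-gated rectifier gene Kcnj5, the sensory-neuron sodium channel gene Scn11a, P2ry1 and Kcnh2 made up the rest. With equal medians none of the 8 passed in limma.

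The lines were compared over both densities to ask which members differ between osteoblasts and osteocytes. Kcnmb1, Clcn2 and Kcnn4 were higher in MLO-Y4, and Kcnab3 and Gria3 were lower. These 5 of 101 members (4.95%) passed an adjusted p of 0.05 in limma, against 10.1% of all spots, and 7 members (6.93%) had an unadjusted p under 0.05 against 21.5%. The fit counts all arrays as independent, yet same-numbered MLO-Y4 low and high arrays deviated together. Its p-values between the lines may therefore be too small. Higher calls made up 3 members (2.97%) against 8.23% of all spots, and lower calls 2 (1.98%) against 1.87%. The median log2 difference of MLO-Y4 minus 2T3 was -0.11 over members and 0.11 over all spots with equal medians. The opposite signs depend on the scaling. After quantile normalization the medians were -0.089 over members and -0.032 over all spots. With arrays scaled on spots above the limit on all arrays they were -0.49 and -0.41. The split of calls was 3 higher and 2 lower with equal medians and with quantile normalization, and 1 higher and 4 lower when arrays were scaled on spots above the limit on all arrays. Those 1253 spots were shifted towards MLO-Y4 by a median of 0.79 with equal medians, 0.04 after quantile normalization and -0.07 under detected-spot scaling.

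**Figure D3:**
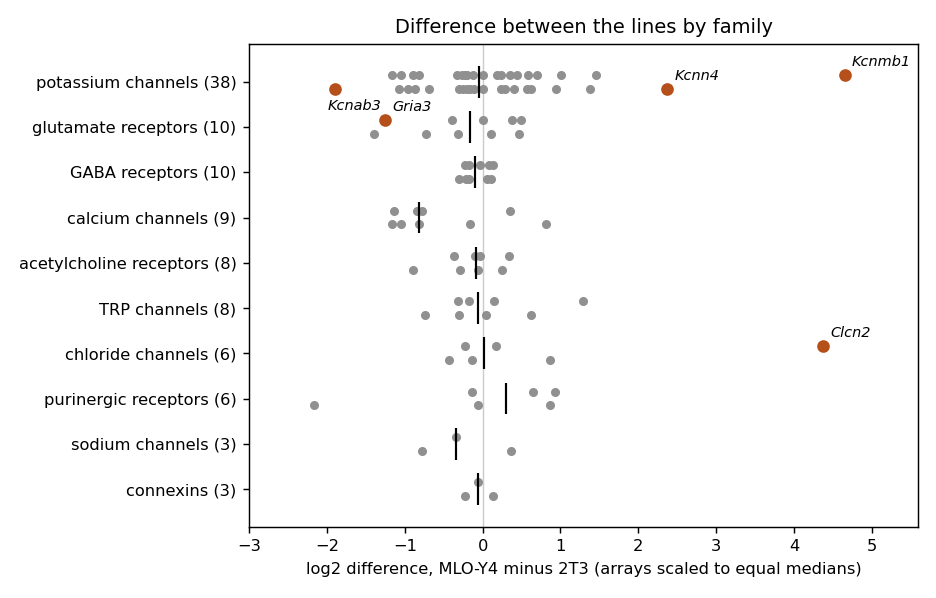
Log2 difference between the lines, MLO-Y4 minus 2T3, for each of the 101 members by family, with the number of members in brackets. Points in orange passed adjusted p 0.05 in limma over all spots, and bars are family medians, which run from -0.81 (calcium channels) to 0.30 (purinergic receptors).

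Kcnmb1 encodes the regulatory beta subunit of the large-conductance calcium-activated potassium channel, which raises its calcium sensitivity in smooth muscle. It read 1.58, 5.65 and 11.9 units in 2T3 C0 and 5.05, 42.0 and 4.54 in 2T3 low. In MLO-Y4 low it read 76.3, 296 and 398 and in MLO-Y4 high 42.4, 430.2 and 395. All 6 MLO-Y4 values were above the limit and above the highest 2T3 value, that of 2T3 low replicate 2, which came within 1 unit of the lowest MLO-Y4 value. Kcnmb1 was the 1 member without overlap between the lines (0.99%, against 6.86% of all spots). The rise was 25.1-fold (log2 4.65, SE 0.79, adjusted p = 0.00361), from a mean of 7.97 to 200.4. On 3 of 6 2T3 arrays Kcnmb1 was below the limit, and its fold moved with the scaling and the floor. It was 13.8-fold with detected-spot scaling, 9.60-fold with the floor at the 50th percentile, and 41.8-fold without the 3 arrays numbered 1 named above, an alternative chosen after seeing the data. With the floor at the highest scaled limit of any array the call ended (5.39-fold, adjusted p = 0.0762).

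Kcnma1, the pore-forming subunit that Kcnmb1 regulates, was at background in MLO-Y4. Its spot exceeded the limit on 0 of 6 arrays there and on 2 of 6 in 2T3. The highest MLO-Y4 reading was 9.08 units, on MLO-Y4 low replicate 2. The difference between the lines was -0.26 (SE 0.43, adjusted p = 0.813). In MLO-Y4 its level has only an upper bound. Summed levels of the 6 skeletal muscle markers ran from 170 to 724 units over 2T3 arrays and from 166 to 1428 over MLO-Y4 arrays, and their part in the Kcnmb1 difference was not tested. No list of smooth muscle markers was read.

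Clcn2, which encodes a chloride channel of the plasma membrane opened by hyperpolarisation, had a like pattern. It read 20.5, 5.25 and 18.5 in 2T3 C0, 0, 0 and 9.08 in 2T3 low, 12.7, 469 and 413 in MLO-Y4 low, and 52.5, 530.1 and 327 in MLO-Y4 high. It was high on 4 MLO-Y4 arrays, lower on the 2 numbered 1, and below the limit on MLO-Y4 low replicate 1, whose value lay within the 2T3 range. The rise was 20.7-fold (log2 4.37, SE 0.94, adjusted p = 0.0134), from a mean of 8.11 to 168. Without MLO-Y4 low replicate 1 the log2 difference was 5.18, and without the 3 arrays numbered 1 the fold was 57.0. The call ended with detected-spot scaling (13.1-fold, adjusted p = 0.0586) and with either higher floor (9.58-fold, adjusted p = 0.0696, and 5.50-fold, adjusted p = 0.136). At low density Clcn2 was above the limit on 0 of 3 2T3 arrays and 2 of 3 MLO-Y4 arrays. The MLO-Y4 low mean was 16.7-fold above the 2T3 limits, with no test of that pair of groups. That mean takes the reading of 12.7 units, below its limit, at face value, so 16.7-fold is not a minimum. Where a fold is given below as at least, every array of the brighter group was above its limit. Such a bound sets the brighter group's mean against a mean over the dim arrays in which each stands at its detection limit (both means of log2 values).

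Clcn2 and Kcnmb1 both rose in MLO-Y4, and their promoters are shown for that reason. Each window runs from 250 bases before to 50 bases after the gene start, from RefSeq on GRCm38.p6, written 5′ to 3′ on the gene's strand. Clcn2 lies at chr16:20716587-20716886 on the minus strand and Kcnmb1 at chr11:33962763-33963062 on the plus strand.
Clcn2: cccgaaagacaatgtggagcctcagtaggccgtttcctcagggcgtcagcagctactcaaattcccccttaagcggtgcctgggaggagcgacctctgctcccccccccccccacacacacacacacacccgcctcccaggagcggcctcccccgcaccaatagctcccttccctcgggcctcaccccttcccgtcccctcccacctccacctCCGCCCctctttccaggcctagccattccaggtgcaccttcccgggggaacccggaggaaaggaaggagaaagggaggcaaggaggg
Kcnmb1: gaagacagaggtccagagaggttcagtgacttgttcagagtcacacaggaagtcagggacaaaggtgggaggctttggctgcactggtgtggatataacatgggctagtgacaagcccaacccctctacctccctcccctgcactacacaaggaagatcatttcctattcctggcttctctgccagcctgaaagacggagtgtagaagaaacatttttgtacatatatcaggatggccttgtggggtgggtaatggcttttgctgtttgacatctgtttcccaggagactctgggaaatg
Capitals mark motif matches on either strand, without overlap between motifs. The motifs searched were the GC box (GGGCGG), the TATA box (TATAAA), the AP-1 site (TGANTCA), the E-box (CACGTG) and the CArG box. Clcn2 held 1 GC box, a motif found in 35.7% of 32851 windows of this length, and Kcnmb1 held 0 matches. The TATA box is in 13.6% of windows, AP-1 in 7.81%, the E-box in 7.15% and the CArG box in 1.63%. No searched motif was shared by both windows, and 65.7% of bases were G or C in Clcn2 against 49.7% in Kcnmb1. These are matches of letters, not tested sites.

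Kcnn4 encodes the intermediate-conductance calcium-activated potassium channel, found in blood and epithelial cells. It read 6.32, 2.02 and 3.63 units in 2T3 C0, 11.4, 6.89 and 0 in 2T3 low, 182, 47.2 and 13.6 in MLO-Y4 low, and 42.4, 7.14 and 16.7 in MLO-Y4 high. It was above the limit on all 6 MLO-Y4 arrays and on 2 of 6 in 2T3, though values ran over a wide range within MLO-Y4 and MLO-Y4 high replicate 2 lay within the 2T3 range. The rise was 5.17-fold (log2 2.37, SE 0.65, adjusted p = 0.0422). The call was lost in 10 of 12 fits without 1 array, where adjusted p ran from 0.0136 to 0.104, being kept only without MLO-Y4 low replicate 3 and without MLO-Y4 high replicate 2. It was also lost with detected-spot scaling (3.00-fold, adjusted p = 0.0998) and without the 3 arrays numbered 1 (log2 1.55, adjusted p = 0.134). Either higher floor ended it (1.98-fold, adjusted p = 0.393, and 1.40-fold, adjusted p = 0.744), as did a variance trend over intensity (adjusted p = 0.0577). It was kept with quantile normalization, a filter on dim spots and the replicate number as a block. Summed levels of the 6 macrophage markers ran from 73.1 to 303 units over 2T3 arrays and from 44.4 to 134 over MLO-Y4 arrays.

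Kcnab3, a cytoplasmic beta subunit of Shaker-type potassium channels, fell in MLO-Y4. It read 47.4, 20.6 and 19.8 units in 2T3 C0, 39.0, 52.6 and 59.0 in 2T3 low, 5.45, 0 and 1.51 in MLO-Y4 low, and 26.2, 14.9 and 25.7 in MLO-Y4 high. All 6 2T3 values were above the limit, all 3 MLO-Y4 low values below it, and MLO-Y4 high lay between, overlapping 2T3 C0. The fall was 3.74-fold (log2 -1.90, SE 0.33, adjusted p = 0.00428) and 5.91-fold with detected-spot scaling. Between the low groups the fall was at least 3.26-fold, with no test of that pair. Group means were 49.5 units in 2T3 low and 4.41 in MLO-Y4 low, but 26.8 in 2T3 C0 and 21.6 in MLO-Y4 high. The pooled fold thus comes mainly from the low groups. Kcnab3 passed whichever single array was omitted, and the call ended with the floor at the 50th percentile (1.78-fold, adjusted p = 0.0749) and at the highest scaled limit (1.22-fold, adjusted p = 0.226). Those floors lie at 18.2 and 36.3 units, and the lowest 2T3 reading was 19.8.

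Gria3 encodes an AMPA-type glutamate receptor subunit. It read 28.4, 14.1 and 16.8 units in 2T3 C0, -2.35, 1.88 and 9.08 in 2T3 low, -1.82, 5.45 and -3.03 in MLO-Y4 low, and -14.1, 0 and -7.57 in MLO-Y4 high. It exceeded the limit on the 3 arrays of 2T3 C0 and on none of the other 9. The fitted log2 difference was -1.25 (SE 0.33, adjusted p = 0.0349), with no bound on the fold, since the mean limit in MLO-Y4 was above the 2T3 mean. Same-numbered arrays of MLO-Y4 deviated together, and with the replicate number as a block the call ended (adjusted p = 0.0517). It was lost in 7 of 12 fits without 1 array, with a filter on dim spots (adjusted p = 0.0762) and without the 3 arrays numbered 1 (adjusted p = 0.0823). With the floor at the 50th percentile the log2 difference was -0.11 (adjusted p = 0.645). At the highest scaled limit it was 0, as every reading lay under that floor. The call held with quantile normalization, detected-spot scaling and a variance trend over intensity. Cacna2d1, an auxiliary subunit of voltage-gated calcium channels, had the same detection pattern.

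**Figure D4:**
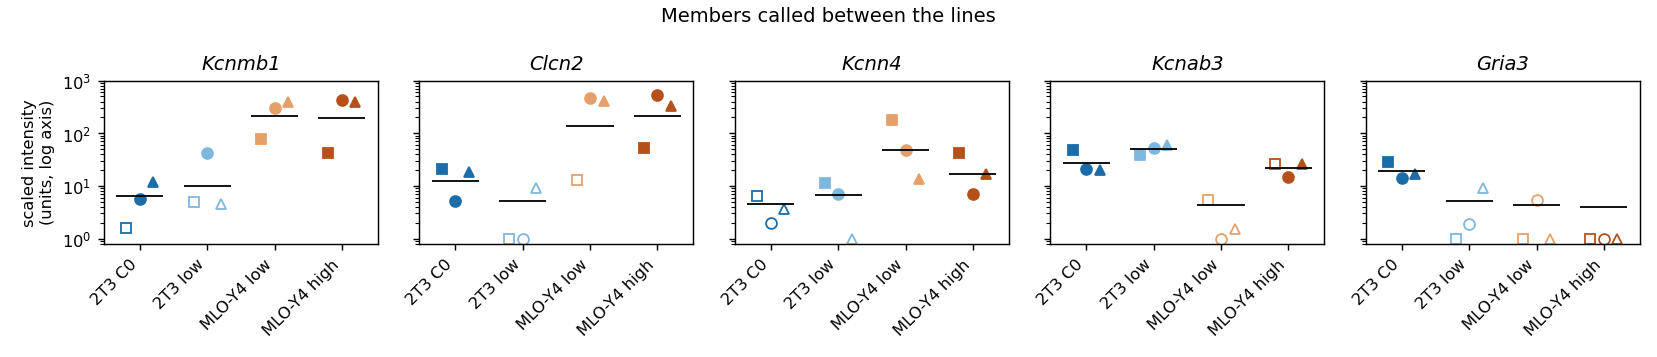
Scaled intensity (log axis) of the 5 members called between the lines, by group. Squares, circles and triangles are replicates 1, 2 and 3, filled symbols are above the array's limit, values under 1 are drawn at 1, and bars are geometric means of 3 arrays after the floor. Kcnmb1 is above 42 units on all MLO-Y4 arrays, and Gria3 is filled only in 2T3 C0.

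With the replicate block 2 further members were called, and Clcn2, Kcnmb1, Kcnab3 and Kcnn4 again. That fit takes the spread between replicate numbers out of the error, so line differences are set against scatter within a number only. The SE of Clcn2 was 0.43 with the block and 0.94 without it, so these calls are not further evidence of a line difference. P2ry1, a receptor for ADP, had a log2 difference of -2.17 (SE 0.97, adjusted p = 0.223), and with the block adjusted p = 0.0172. It read 36.3, 114 and 134 units in 2T3 C0, 261, 90.8 and 327 in 2T3 low, -7.27, 105 and 69.6 in MLO-Y4 low, and -24.2, 76.6 and 59.0 in MLO-Y4 high. The 2 lowest readings are those on MLO-Y4 arrays numbered 1, and the others overlap with 2T3. Trpc7, a receptor-operated cation channel, differed by 1.29 (SE 0.61, adjusted p = 0.252, and 0.0259 with the block). Its signal exceeded the limit on 2 arrays, both MLO-Y4 high.

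The rest of the purinergic receptors did not pass. P2rx4, an ATP-gated channel of many tissues, was above the limit on 11 arrays. It read 40.3, 51.3 and 68.0 in 2T3 C0, 4.71, 62.7 and 77.2 in 2T3 low, 85.4, 78.1 and 75.7 in MLO-Y4 low, and 143, 14.9 and 109 in MLO-Y4 high. With 1 low array in each of 2 groups, the lines overlapped (log2 0.87, SE 0.76, adjusted p = 0.594). P2rx7, whose channel opens a large pore at high ATP, was above the limit on 5 of 12 arrays (0.93, SE 0.40, adjusted p = 0.198). P2ry2, a receptor for ATP and UTP, was above it on 6 (0.65, SE 0.47, adjusted p = 0.499) and P2rx6 on 1.

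Connexin genes were at or near background in both lines. Gja10 was above the limit on all 3 arrays of 2T3 C0 (28.4, 6.06 and 6.61 units), 2 of 3 in 2T3 low (16.8, 6.26 and 9.08), and on none in MLO-Y4, where it read from 0 to 24.2. The readings overlapped, and the brightest in MLO-Y4 came from the arrays with the highest limits (log2 -0.06, SE 0.63, adjusted p = 0.981). Gja3, a connexin of lens fibres, exceeded it on 2 arrays, both 2T3 C0, at 11.1 and 7.27 units. Its difference between the lines was -0.23 (SE 0.35, adjusted p = 0.789). Gjb6, a connexin of the inner ear and skin, was above it on 3 arrays, 1 each in 2T3 C0 (21.8), 2T3 low (19.5) and MLO-Y4 low (13.6), with a difference of 0.14 (SE 0.60, adjusted p = 0.939). In MLO-Y4 high 0 of 3 connexin genes was above the limit on any array. MLO-Y4 high minus low was 0.40 (SE 0.49) for Gja3, 0.09 (SE 0.89) for Gja10 and -0.16 (SE 0.85) for Gjb6, each smaller than its own error.

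**Figure D5:**
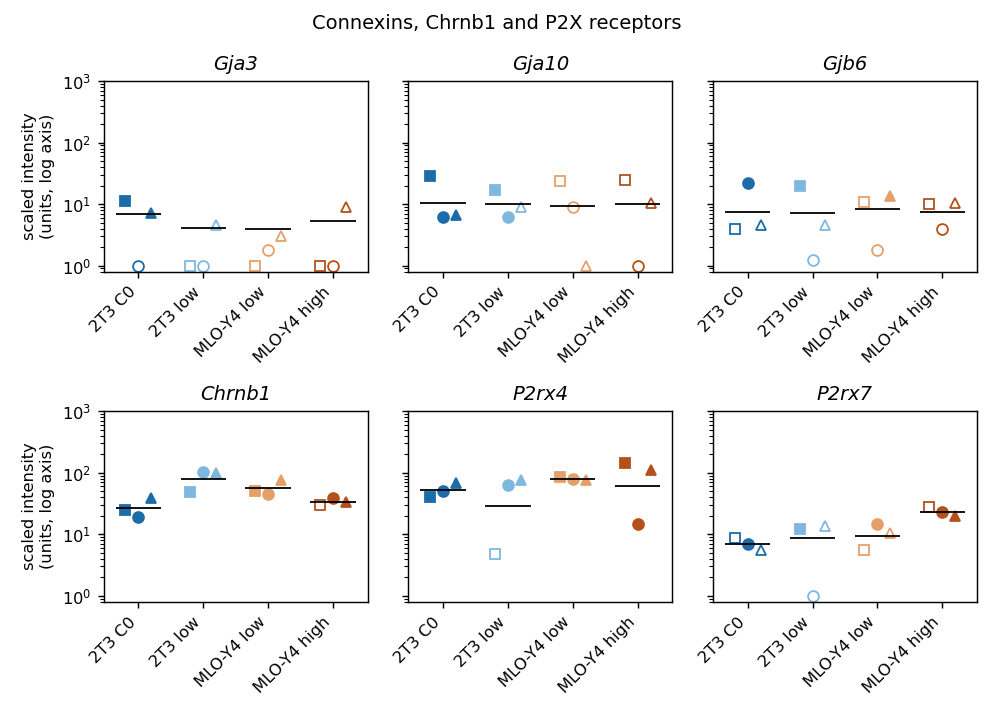
Scaled intensity (log axis) of the 3 connexin genes, Chrnb1, P2rx4 and P2rx7 by group. Squares, circles and triangles are replicates 1, 2 and 3, filled symbols are above the array's limit, values under 1 are drawn at 1, and bars are geometric means of 3 arrays after the floor. The connexin panels hold few filled symbols and none in MLO-Y4 high.

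The 4 members above the limit throughout were not called between the lines. Cacna1g, a low-voltage-activated calcium channel pore, read 71.1, 417 and 289 units in 2T3 C0, 167, 299 and 168 in 2T3 low, 219.8, 447 and 180.2 in MLO-Y4 low, and 141, 644 and 188 in MLO-Y4 high. Group means lay between 203 and 261, and the groups overlapped. Its difference of 0.35 (SE 0.54, adjusted p = 0.796) turned to -0.51 with detected-spot scaling. Clcn7, the chloride-proton exchanger of lysosomes that osteoclasts need for acid secretion, had group means of 94.3 and 57.3 units in C0 and low 2T3 cells, and 70.0 and 98.1 in low and high MLO-Y4 cells. Its difference of 0.17 (SE 0.46, adjusted p = 0.890) was -0.68 with detected-spot scaling. Kcnh2, an ether-a-go-go-related channel of the heart, had group means from 77.7 to 95.0 units and a difference of -0.17 (SE 0.45, adjusted p = 0.891).

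Kcnd1, a rapidly inactivating A-type potassium channel, was the fourth. It read 41.9, 69.8 and 70.7 units in 2T3 C0, 394, 61.4 and 109 in 2T3 low, 151, 125 and 132 in MLO-Y4 low, and 293, 179.7 and 206 in MLO-Y4 high. All 6 MLO-Y4 values were above 5 of 6 2T3 values, and 2T3 low replicate 1 was the highest of all 12. The difference was 0.94 (SE 0.44, adjusted p = 0.251). Without 2T3 low replicate 1 it was 1.32 and passed (adjusted p = 0.0240), so with equal medians 1 array decides this call. Kcnd1 is among the 1253 spots above the limit on all arrays, which equal medians shifted towards MLO-Y4 by a median of 0.79. The part of that shift in its difference was not tested. It did not pass with detected-spot scaling.

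Among nicotinic acetylcholine receptors, Chrna4, Chrnb1 and Chrnd were above the limit on 10, 11 and 11 arrays, and the other 5 on 4 or fewer. Chrnb1 and Chrnd are subunits of the muscle receptor. Its ligand-binding subunit gene Chrna1 was above the limit on 3 arrays, all 2T3. Chrnb1 read 24.5, 19.0 and 39.0 in 2T3 C0, 48.1, 101 and 99.9 in 2T3 low, 50.9, 45.4 and 75.7 in MLO-Y4 low, and 30.3, 38.3 and 33.3 in MLO-Y4 high. In each line the low readings of Chrnb1 lay above those of the other group, but the 30.3 on MLO-Y4 high replicate 1 was below that array's limit. No density difference of Chrnb1 passed, and in MLO-Y4 its unadjusted p was not under 0.05. Over both densities the difference between lines did not pass (log2 -0.06, SE 0.33, adjusted p = 0.950).

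Of 9 calcium channel genes, 0 passed with equal medians. Their differences ran from -1.16 to 0.81 with a median of -0.81, 7 being below 0 and 2, Cacna1g and Cacng2, above it. Cacna1a, the pore of neuronal P/Q-type channels, was above the limit throughout 2T3 and on 1 MLO-Y4 array. Its readings were 12.9 to 32.4 in 2T3, and in MLO-Y4 16.4, 9.08 and 4.54 at low and 42.4, -0.65 and 3.03 at high density. The MLO-Y4 readings of 16.4 and 42.4, both on arrays numbered 1, were not below the 2T3 range, and 42.4 exceeded every 2T3 reading. The difference between the lines did not pass (log2 -1.16, SE 0.64, adjusted p = 0.342). Cacna1a passed with detected-spot scaling and without MLO-Y4 high replicate 1. It also passed without the 3 arrays numbered 1, an alternative chosen after seeing the data. Kcnk1, a tandem-pore potassium channel, was above the limit on 5 of 6 2T3 arrays and none in MLO-Y4, and its difference did not pass (log2 -0.69, SE 0.68, adjusted p = 0.648). Its brightest reading of all, 34.3 units, was on MLO-Y4 high replicate 1, where it only equalled the limit, and the highest in 2T3 was 33.4. Of the TRP channel genes, 0 of 8 exceeded the limit on 10 or more arrays, where 15 of 101 members did. Trpc1 was above the limit on 5 of 6 2T3 and 2 of 6 MLO-Y4 arrays, while Trpv2, a channel studied for its response to stretch, was above it on 1 array. Of the GABA receptor genes, Gabrd was above the limit on 8 arrays with group means from 20.4 to 24.3 units, and Grin2b, an NMDA receptor subunit, was above it on 7.

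The C0 and low groups of 2T3 were compared to ask which members respond to density in osteoblasts. No member was called in limma (0 of 101), nor any spot (0% of 5030). At an unadjusted p under 0.05 there were 4 members (3.96%) against 2.8% of all spots. Gria3 and Cacna2d1 had the smallest p in the direction of C0, and Chrnb1 and Kcnc1 in that of low. Gria3 was at least 2.34-fold and Cacna2d1 at least 2.22-fold higher in C0, as none of the low arrays was above the limit for either. Chrnb1 differed by -1.58 (SE 0.46, unadjusted p = 0.00587, adjusted p = 1), from a mean of 78.7 units in low to 26.3 in C0. Kcnc1, a fast delayed-rectifier channel, read 4.74, 1.21 and 2.31 units in C0, all near the floor, and 26.6, 1.88 and 18.2 in low, where 2 of 3 arrays were above the limit (fitted log2 -1.56, SE 0.61, adjusted p = 1).

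MLO-Y4 high was compared with MLO-Y4 low to ask what goes with gap junctions in osteocytes. Again 0 of 101 members and 0% of all spots passed in limma, and 2 members (1.98%) had an unadjusted p under 0.05 against 2.31% of all spots. Kcnab3, at 5.45, 0 and 1.51 units in low and 26.2, 14.9 and 25.7 in high, was 1 of them. All 3 high readings exceeded the low ones, although the one on replicate 1 was below that array's limit. The fitted log2 difference of Kcnab3 was 2.29 (SE 0.47, unadjusted p = 5.11e-04, adjusted p = 1). No bound on the fold is given, since that high reading was itself below its limit. P2rx7 was the other, with 5.45, 14.5 and 10.6 units in low and 28.3, 22.7 and 19.7 in high. Its groups did not overlap either (1.30, SE 0.56, unadjusted p = 0.0410, adjusted p = 1), but 3 of these 6 readings were at or below their limits. In the direction of low, the smallest p belonged to Clcn5, an endosomal chloride-proton exchanger (-1.39, SE 0.81, adjusted p = 1), and Kcnn4 (-1.51, SE 0.91, adjusted p = 1).

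The density effects of the lines were set against each other in the same fit. No member and no spot passed, with 3 members (2.97%) against 2.07% of all spots at an unadjusted p under 0.05. Kcnab3 had the smallest p among members. Its density effect was 3.18 higher on the log2 scale in MLO-Y4 than in 2T3 (SE 0.66, unadjusted p = 5.99e-04, adjusted p = 1). Gria3 (-2.01, SE 0.65) and Cacna2d1 (-2.52, SE 0.90) were the others, both above the limit only in 2T3 C0, and Kcnd1 (1.93, SE 0.88, unadjusted p = 0.0506) followed. The adjusted p of these was 1.

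Genes around these receptors and channels were read from a list of calcium signalling, ATP release and adenosine genes, of which 42 of 80 were measured. In limma 1 was higher and 1 lower in MLO-Y4, where 8.23% and 1.87% of all spots were, and 0 passed between densities in either line. The median difference was 0.13, against 0.11 over all spots. Nt5e, the ectoenzyme that makes adenosine from AMP, was the one that rose. It read from -9.08 to 7.90 units in 2T3, below the limit on all 6 arrays, and 124, 69.0 and 37.9 in MLO-Y4 low and 38.4, 22.1 and 18.2 in MLO-Y4 high. All 6 MLO-Y4 readings were above the limit and the rise was at least 5.86-fold (adjusted p = 3.44e-04). Aqp1, a water channel, was 4.96-fold lower in MLO-Y4 (15.5 against 76.6 units, log2 -2.31, SE 0.46, adjusted p = 0.00930). It exceeded the limit on 6 of 6 2T3 and 3 of 6 MLO-Y4 arrays.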

How the data were processed

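Spot intensities of 12 arrays were used as the authors deposited them; that they are linear and background-subtracted was read from the values, which run from -23 to 53055, and the image software and its settings are not stated in the sources used. Of 5030 spots, 4633 carry 1 gene symbol in the platform annotation, 5 carry several and 392 are unnamed here, and 4624 symbols were updated by Entrez identifier. The gene set and the lists were proposed with earlier results of these data known, and the members follow from the symbols. Each array was scaled to the median 18.2, floored at 3.96 units and put on the log2 scale. The 10th percentile, at -1.32 units, has no log. limma 3.58.1 (R 4.3.3) tested each difference, with 4 group means over 12 arrays, 8 residual degrees of freedom, two-sided, with Benjamini-Hochberg adjustment over 5030 spots and a threshold of 0.05, in 4 comparisons. The procedure was tested on simulated data. Group levels are geometric means of floored values, and the number of arrays limits their precision.

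Genes were named if they passed in a comparison, were above the limit on every array, marked the set (Gja3, Gjb6, Chrnb1, Kcnab3) or had the highest mean scaled intensity of a family, which only picks an example and says nothing of levels between genes. Where none passed, the 2 with the smallest p in each direction were named. Others were named after their values were seen, for their detection pattern or role. Same-numbered arrays of the MLO-Y4 groups correlated in their deviations from the group means (r = 0.627, 0.480 and 0.514), and those of 2T3 less (0.0673, 0.0991 and 0.113), so the numbers pair the MLO-Y4 arrays by the data alone. Alternatives changed the scaling, floor, detection limit, filter, variance trend, replicate block and arrays included.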

Additional observations from a re-analysis of the deposited data

How the results depend on the processing

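Counts of members called between the lines were 5 with equal medians, 5 after quantile normalization, 5 with detected-spot scaling, 4 with a filter on dim spots, 4 with an intensity trend, and 7 without the 3 arrays numbered 1. With the floor at the 50th percentile the count was 1 and at the highest scaled limit 0. Leaving out 1 array gave 3 to 5, with 3 without 2T3 C0 replicate 1, 2T3 C0 replicate 3, 2T3 low replicate 3, MLO-Y4 low replicate 1 or MLO-Y4 high replicate 3. Clcn2, Kcnab3 and Kcnmb1 were called in all 12 such fits. With the replicate number as a block, which takes spread between numbers out of the error, the count was 6. Gria3 was lost and P2ry1 and Trpc7 were gained. In the other 3 comparisons 0 members passed under every alternative run. Members above the limit throughout a group fell from 34 to 21 with a limit 2 times as high. Shares of all spots are given only for the main settings. The counts under the alternatives therefore do not show whether members changed more than the array as a whole.

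Directions turned only for differences that did not pass. Cacna1g was -0.39 after quantile normalization and -0.51 under detected-spot scaling, Clcn7 -0.40 and -0.68. Gjb6 was -0.60 with detected-spot scaling and -0.061 with the floor at the 50th percentile. Without the 3 arrays numbered 1, Clcn7 was -0.014, Gja3 0.080, Gjb6 -0.22 and Kcnh2 0.14. Leaving out 1 array gave -0.036 to 0.60 for Cacna1g, -0.24 to 0.078 for Chrnb1, -0.12 to 0.49 for Clcn7, -0.089 to 0.53 for Gjb6 and -0.42 to 0.087 for Kcnh2. The cause was not tested. Signal over background limits what can be said of the 48 of 101 members that exceeded the limit on 3 or fewer arrays.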
